A study of Homo sapiens with 4 samples.

Results

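The 36 genes described here encode subunits of the ATP-dependent chromatin remodelling complexes, and they were taken by symbol from the 59409 gene symbols of the deposited expression table. They comprised 22 SWI/SNF, 5 ISWI, 6 CHD and 3 INO80-family genes. All 36 were among the 15815 genes that reached 1 TPM in at least 2 libraries, TPM being a read count scaled for gene length and for library total. Polyadenylated RNA was sequenced from 786-O, a human clear cell renal carcinoma cell line. The libraries allow DEK-deficient cells to be set against controls, DEK being a chromatin-bound protein with histone chaperone activity. The 2 control libraries were labelled as negative control with the genotype WT, and their columns were named for Cas9. The 2 knockout libraries were labelled DEK KO. Per the labels' protocols a Cas9-expressing clone had been made with LentiCas9-Blast virus, and its cells then received LentiGuide-Puro virus with DEK gRNAs and were sorted singly. Whether the controls carry a guide, which clones the knockout libraries represent and whether libraries of a group were separate cultures is not in the labels. The p-values therefore reflect only how far these libraries scatter, possibly for technical reasons, and a difference between clones cannot be told apart from an effect of the knockout.

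Remodelling complexes use ATP hydrolysis by an SNF2-type motor to slide, evict or exchange nucleosomes. SWI/SNF complexes open chromatin and exist as BAF, which carries ARID1A or ARID1B, as PBAF, which carries PBRM1, ARID2, BRD7 and PHF10, and as ncBAF, which carries BRD9. ISWI complexes space nucleosomes, the CHD proteins include the motors of the repressive NuRD complex, and the INO80 family handles the histone variant H2A.Z. PBRM1 is one of the genes most often mutated in clear cell renal carcinoma.

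DEK mRNA measured 95.02 and 76.3 TPM in the control libraries versus 31.4 and 15.7 TPM in the knockout libraries. It was lower in both knockout libraries and was still detected in both (log2 fold change -1.89, SE 0.33, limma adjusted p = 0.030), and the adjusted p was 0.14 without control 1 and 0.10 without control 2. Of 12 renal epithelial and clear cell carcinoma markers 11 were at 1 TPM or more in every library, and the exception, CA9, reached 0.346 TPM at most. All 5 leukocyte, 3 endothelial and 2 hepatocyte markers stayed below 1 TPM, and of 4 fibroblast markers COL1A1 alone was above 1 TPM in every library. Depth estimated from the table put the remodelling genes between about 254.3 reads, for SRCAP in knockout 1, and about 17469.9 reads, for SMARCA4 in control 2. Counting error alone was thus at most 6.27% of a value. Log2 fold changes were computed from log2(TPM + 1), which understates the change of low genes such as SRCAP. Bulk RNA cannot separate fewer transcripts per cell from fewer cells that carry them.

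Among the remodelling genes 9 of 36 fell in the knockout and 0 rose (limma, Benjamini-Hochberg adjusted p under 0.05 over all tested genes), where 8.67% of all tested genes fell and 9.06% rose. At an unadjusted p under 0.05 there were 17 lower and 0 higher, beside 21.4% and 16.9% of all tested genes. The genes that fell were PBRM1, SMARCE1, SMARCC1, BCL7A, PHF10, ARID1A, CHD3, SMARCD1 and SMARCA4. Shares over all genes were higher when only genes with a mean of at least 5 TPM were tested, which kept 35 of the 36. In that setting 11 of the 35 fell and 0 rose by limma, beside 14.4% and 11.9% of all genes kept. At an unadjusted p under 0.05, 17 of the 35 were lower and 0 higher, beside 26.5% and 18.1%. The median log2 fold change of the 36 genes was -0.27, beside -0.058 over all tested genes. Both knockouts lay below both controls for 26 of the 36, a pattern found in 39% of all tested genes, and above both controls for 3 (SMARCD2, DPF2 and BAZ2A), a pattern found in 29.2% of them. The other 7 genes had overlapping groups. The summed level of the 36 genes was 1554 and 1568 TPM in control libraries and 1373 and 1388 TPM in knockout libraries, 11.6% lower by the means. The counts depended on single libraries. Without control 1, 0 of the 36 fell by the limma test (0.00653% of all tested genes), with 8 lower at an unadjusted p under 0.05 (8.16% of all). Without control 2, 0 fell (0.0457% of all), with 7 lower at an unadjusted p under 0.05 (11.6% of all). Without knockout 1, 16 fell (20.7% of all), and without knockout 2, 10 fell (11.2% of all). In each of these fits the group left with 1 library was assumed to vary like the other group, whose 2 libraries alone gave the spread.

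**Figure D1:**
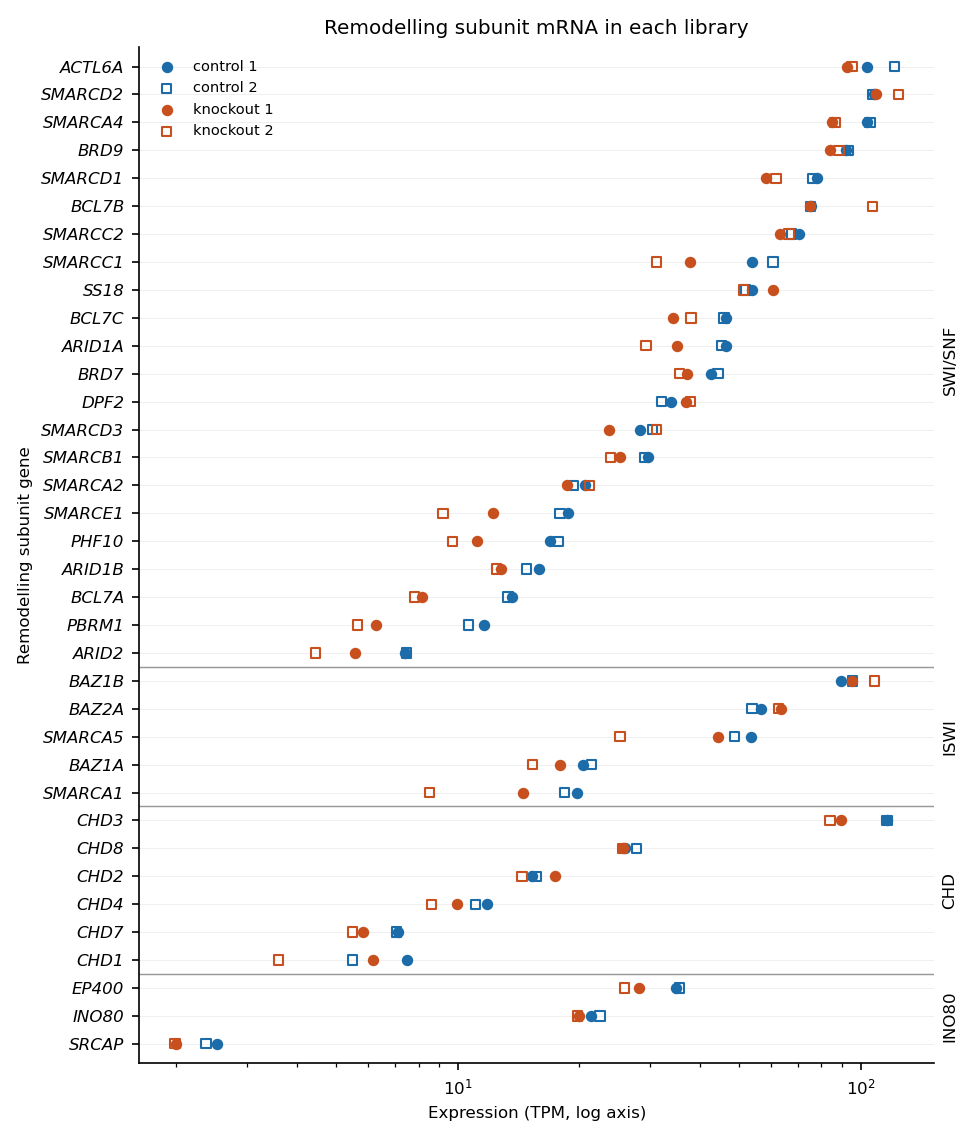
TPM of each remodelling gene on a log axis in the 2 control (blue) and 2 knockout (orange) libraries, circles for replicate 1 and open squares for replicate 2, ordered by the control mean within each family. The orange points lie to the left of both blue points for 26 genes and to the right of both for 3.

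The fold changes moved with the base composition of the transcripts. Among all tested genes with a GC content under 40% the median log2 fold change was -0.35, and it rose through the classes to 0.11 at 60% or more. In these outer classes the medians were -0.44 and 0.17 in knockout 2, and -0.27 and 0.064 in knockout 1. The part of this trend in the fold changes of single genes was not tested, so changes are given below also with the trend removed from every library by a lowess fit. On that scale 9 of the 36 genes fell and 0 rose, beside 7.43% of all tested genes that fell and 9.05% that rose, and 13 were lower and 1 higher at an unadjusted p under 0.05 by limma, beside 17.6% and 18.5% of all. The 7 genes called on both scales were PBRM1, SMARCC1, BCL7A, ARID1A, CHD3, SMARCD1 and SMARCA4. PHF10 and SMARCE1, with 37.3% and 38.4% GC, no longer passed. BCL7C and EP400, with 64.3% and 55.02% GC, passed in their place. Both knockouts lay below both controls for 23 of the 36 (33% of all tested genes) and above both for 5 (33.1% of all). The median of the 36 was -0.26 on that scale.

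**Figure D2:**
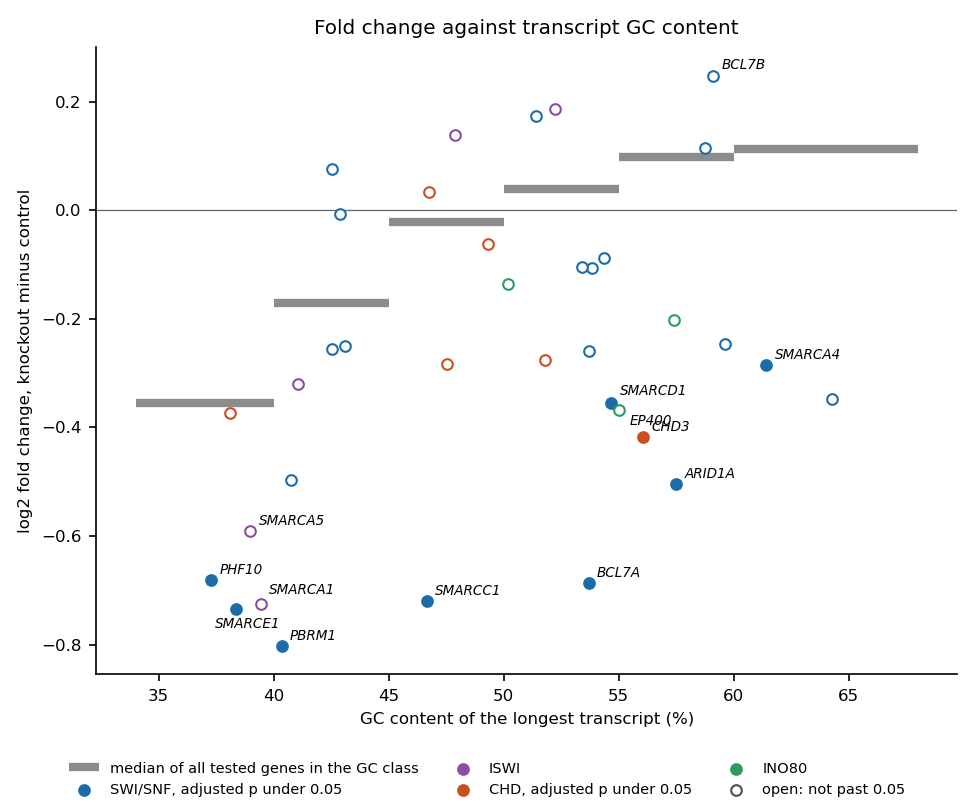
Log2 fold change of each remodelling gene against the GC content (%) of its longest annotated transcript, filled where the adjusted p is under 0.05, with grey bars for the median of all tested genes in each GC class. The grey bars climb from -0.35 to 0.11.

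Promoters are shown for genes that fell on both scales, since these moved in the same direction. RefSeq (GRCh38.p14) sequences were matched by symbol for 30 of the 36 genes. No match was made for ACTL6A, ARID2, BAZ1A, CHD7, SMARCC1 and SMARCC2. Each line gives the 150 bases before the most upstream start in the RefSeq table, 5′ to 3′ on the strand of the gene, with the motifs found in capitals.
PBRM1 (chr3:52685914-52686063, minus strand): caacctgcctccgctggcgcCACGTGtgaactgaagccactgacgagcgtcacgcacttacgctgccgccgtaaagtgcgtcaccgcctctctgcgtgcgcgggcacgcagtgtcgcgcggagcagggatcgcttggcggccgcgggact
ARID1A (chr1:26695865-26696014, plus strand): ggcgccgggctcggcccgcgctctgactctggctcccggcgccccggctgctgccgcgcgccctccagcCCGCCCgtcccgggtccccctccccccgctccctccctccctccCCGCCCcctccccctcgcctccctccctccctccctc
BCL7A (chr12:122021734-122021883, plus strand): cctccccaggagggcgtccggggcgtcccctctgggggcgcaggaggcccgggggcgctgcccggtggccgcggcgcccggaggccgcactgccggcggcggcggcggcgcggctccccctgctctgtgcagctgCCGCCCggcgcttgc
SMARCD1 (chr12:50085192-50085341, plus strand): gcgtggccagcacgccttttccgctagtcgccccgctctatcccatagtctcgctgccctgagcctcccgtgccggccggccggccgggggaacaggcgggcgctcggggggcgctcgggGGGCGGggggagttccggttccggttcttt
SMARCA4 (chr19:10960880-10961029, plus strand): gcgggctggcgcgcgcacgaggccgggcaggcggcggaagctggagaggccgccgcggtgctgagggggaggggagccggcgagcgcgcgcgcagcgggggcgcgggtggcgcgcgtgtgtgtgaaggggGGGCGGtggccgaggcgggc
CHD3 (chr17:7888639-7888788, plus strand): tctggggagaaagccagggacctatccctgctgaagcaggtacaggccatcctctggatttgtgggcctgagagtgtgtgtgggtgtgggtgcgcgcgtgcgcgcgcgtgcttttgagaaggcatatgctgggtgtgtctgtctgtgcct
The capitals mark the GC box bound by SP and KLF factors (GGGCGG or its reverse complement CCGCCC) and, in PBRM1, the E box CACGTG. SMARCA4, ARID1A and BCL7A had 83.3%, 83.3% and 84.7% GC in this window, SMARCD1 had 74% and PBRM1 68.7%. CHD3 had 60%. By the GENCODE gene spans given below, the windows of ARID1A, BCL7A, SMARCD1, SMARCA4 and CHD3 lie inside the gene, downstream of its outermost annotated start, so another start may lie upstream of them. On both strands the GC box occurred in 19 of the 30 windows (63.3%) and in 36.7% of 27193 RefSeq promoters of the same length. The median GC content was 69% in the 30 windows and 59.3% in all promoters. The E box was in 1 of the 30 windows and in 4.65% of all. CCAAT occurred in 6 of 30 (20% against 24.4% of all) and the ETS motif CCGGAAG in 3 (10% against 7.18%). The TATA box TATAAA, the cyclic AMP response element TGACGTCA and the YY1 motif AAGATGG occurred in 0 of 30, and in 7.16%, 1.52% and 2.10% of all promoters. A match is a description of letters only.

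The subunits that define PBAF were all lower in both knockouts than in both controls, a pattern found in 39% of all tested genes. PBRM1, the polybromo subunit that reads acetylated histones (chr3:52545352-52685917, minus strand, GRCh38), measured 11.6 and 10.6 TPM in the control libraries versus 6.27 and 5.63 TPM in the knockout libraries. Every knockout value lay below every control value. Its mean level dropped from 11.1 ± 0.701 to 5.95 ± 0.451 TPM (SD, n = 2 libraries), the deepest fall among the 36 genes on the deposited log2 scale (log2 fold change -0.80, SE 0.13, limma adjusted p = 0.027), and with the GC trend removed the change was -0.54 (limma adjusted p = 0.039). PHF10, a PHD-finger subunit (chr6:169703905-169725566), measured 16.9 and 17.7 TPM in the control libraries versus 11.2 and 9.72 TPM in the knockout libraries. It fell on the deposited scale (log2 fold change -0.68, SE 0.12, limma adjusted p = 0.030) and did not pass with the trend removed, at -0.31 (limma adjusted p = 0.15). ARID2, the DNA-binding subunit of PBAF, measured 7.42 and 7.45 (control) versus 5.58 and 4.43 TPM (knockout) without passing the test (-0.50, limma adjusted p = 0.087). BRD7, its bromodomain subunit, measured 42.5 and 44.3 (control) versus 37.2 and 35.5 TPM (knockout) and did not pass either (-0.25, limma adjusted p = 0.094). BRD7 shares 42.4% of its exon length with genes on the opposite strand, and the use of strand in counting is unknown. In each of these 4 genes knockout 2 was lower than knockout 1, as it was in 49.5% of all tested genes. All 4 have transcripts of low GC content, from 37.3% for PHF10 to 43.1% for BRD7, and with the trend removed the values of ARID2 and BRD7 were -0.25 and -0.10. The 124 tested genes within 5 Mb of PBRM1 had a median log2 fold change of 0.065, and the 20 around PHF10 had -0.11.

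Of the 3 subunits that define BAF, ARID1A fell, where 8.67% of all tested genes did. ARID1A, a DNA-binding subunit often lost in cancers (chr1:26693236-26782110), measured 46.5 and 45.3 TPM in the control libraries versus 34.98 and 29.3 TPM in the knockout libraries. Both knockouts were below both controls. On average it dropped from 45.9 ± 0.868 to 32.2 ± 4.001 TPM (SD, n = 2 libraries) (log2 fold change -0.50, SE 0.11, limma adjusted p = 0.045), and with the GC trend removed the change was -0.60 (limma adjusted p = 0.043). Its paralog ARID1B measured 15.9 and 14.8 (control) versus 12.8 and 12.5 TPM (knockout) and did not pass (-0.26, limma adjusted p = 0.15, and with the trend removed -0.32, adjusted p = 0.087). DPF2, a reader of acetylated histone H3, was higher in both knockouts, with 33.9 and 32.02 (control) versus 36.8 and 37.8 TPM (knockout), without passing the test (0.17, limma adjusted p = 0.20, and with the trend removed 0.13, adjusted p = 0.26). SS18, which BAF and ncBAF share, had overlapping groups with 53.9 and 51.9 (control) versus 60.7 and 51.3 TPM (knockout) (0.076, limma adjusted p = 0.64, and with the trend removed 0.25, adjusted p = 0.12). BRD9, the bromodomain subunit of ncBAF, measured 92.2 and 93.2 (control) versus 84 and 88.4 TPM (knockout) (-0.10, limma adjusted p = 0.32, and with the trend removed -0.16, adjusted p = 0.13). ARID1A and ARID1B of BAF and ARID2 of PBAF together summed to 69.8 and 67.5 TPM in control libraries and to 53.4 and 46.3 TPM in knockout libraries, 27.4% lower by the means. The sum of SMARCA4 and SMARCA2 was 15.3% lower and that of SMARCC1 and SMARCC2 21.3% lower. The SMARCD1, SMARCD2 and SMARCD3 sum was 4.58% lower, with overlapping groups. The BCL7A, BCL7B and BCL7C sum overlapped too, at 135.4 and 134.2 TPM (control) versus 117.3 and 152.7 TPM (knockout).

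Among the core and shared subunits 4 of 11 fell, where 8.67% of all tested genes did. With the GC trend removed 4 of 11 fell too, beside 7.43% of all tested genes. SMARCC1, a scaffold of SWI/SNF complexes (chr3:47585272-47782106), measured 53.9 and 60.6 TPM in the control libraries versus 37.7 and 31.2 TPM in the knockout libraries. The groups were separate, with the lowest value in knockout 2. Its mean dropped from 57.2 ± 4.75 to 34.4 ± 4.64 TPM (SD, n = 2 libraries) (log2 fold change -0.72, SE 0.13, limma adjusted p = 0.030), and with the GC trend removed the change was -0.67 (limma adjusted p = 0.036). Its paralog SMARCC2 measured 70.4 and 67.3 (control) versus 63.1 and 66.5 TPM (knockout) and did not pass (-0.087, limma adjusted p = 0.44, and with the trend removed -0.16, adjusted p = 0.15). SMARCE1, the HMG-box subunit (chr17:40624962-40648864), measured 18.8 and 17.9 TPM in the control libraries versus 12.3 and 9.20 TPM in the knockout libraries. It fell on the deposited scale (log2 fold change -0.73, SE 0.16, limma adjusted p = 0.043) and did not pass with the trend removed, at -0.40 (limma adjusted p = 0.083). Other genes on the same strand share 19.8% of its exon length. SMARCD1, which links the complex to transcription factors (chr12:50084972-50100712), measured 77.9 and 76.2 TPM in the control libraries versus 58.4 and 61.7 TPM in the knockout libraries. It fell (log2 fold change -0.36, SE 0.073, limma adjusted p = 0.040) and did so with the trend removed, at -0.43 (limma adjusted p = 0.023). Knockout 2 was the lower knockout library for SMARCC1 and SMARCE1, and knockout 1 was for SMARCD1.

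The BCL7 subunits differed among themselves. BCL7A (chr12:122019422-122062044) measured 13.6 and 13.3 TPM in the control libraries versus 8.18 and 7.80 TPM in the knockout libraries. The libraries of each group lay close together and the groups apart. The average dropped from 13.5 ± 0.192 to 7.99 ± 0.264 TPM (SD, n = 2 libraries) (log2 fold change -0.69, SE 0.11, limma adjusted p = 0.027), and with the GC trend removed BCL7A had the deepest fall among the 36, at -0.75 (limma adjusted p = 0.023). BCL7C measured 46.4 and 45.8 (control) versus 34.2 and 37.98 TPM (knockout), missed the threshold on the deposited scale (-0.35, limma adjusted p = 0.060) and fell with the trend removed, at -0.48 (limma adjusted p = 0.023). BCL7B measured 75.4 and 75.02 (control) versus 74.9 and 106.9 TPM (knockout), so that knockout 2 stood above the other 3 libraries (0.25, limma adjusted p = 0.35, and with the trend removed 0.14, adjusted p = 0.55). BAZ1B, an ISWI partner gene (chr7:73440398-73522278), lies close to BCL7B (chr7:73536356-73558002). Like BCL7B it was highest in knockout 2, with 89.2 and 95.5 (control) versus 95.2 and 108.5 TPM (knockout) (0.14, limma adjusted p = 0.33, and with the trend removed 0.16, adjusted p = 0.26). The 67 tested genes within 5 Mb of BCL7B, BAZ1B included, had a median of -0.019 in knockout 1 and 0.31 in knockout 2, relative to the control mean on the log2 scale. With knockout 2 as the lone knockout BCL7B had a log2 fold change of 0.50, and with knockout 1 alone it had -0.0063.

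The remaining shared subunits did not pass the test. SMARCB1, the subunit lost in rhabdoid tumours, measured 29.7 and 29.1 (control) versus 25.2 and 23.99 TPM (knockout) (-0.25, limma adjusted p = 0.11, and with the trend removed -0.35, adjusted p = 0.061). Tested genes of chromosome 22, where it lies, had a median log2 fold change of 0.22, and with chromosome medians removed SMARCB1 passed, at -0.47 (limma adjusted p = 0.032). Under that setting BCL7C also passed, at -0.35 (limma adjusted p = 0.042), and SMARCD1 no longer did, at -0.29 (limma adjusted p = 0.0505). ACTL6A, the actin-related subunit, measured 103.8 and 121.5 (control) versus 92.5 and 95.2 TPM (knockout) (-0.26, limma adjusted p = 0.13, and with the trend removed -0.086, adjusted p = 0.61). SMARCD2 measured 108.1 and 107.2 (control) versus 109.4 and 124.1 TPM (knockout) (0.11, limma adjusted p = 0.38, and with the trend removed 0.010, adjusted p = 0.93). SMARCD3 had overlapping groups, with 28.4 and 30.4 (control) versus 23.7 and 31.2 TPM (knockout) (-0.11, limma adjusted p = 0.64, and with the trend removed -0.17, adjusted p = 0.42).

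Of the interchangeable SWI/SNF motors, SMARCA4 passed the test. SMARCA4, which encodes BRG1 (chr19:10960825-11079426), measured 103.8 and 105.5 TPM in the control libraries versus 84.96 and 86.4 TPM in the knockout libraries. Its groups were separate and each was tight. On average BRG1 mRNA dropped from 104.6 ± 1.25 to 85.7 ± 1.02 TPM (SD, n = 2 libraries) (log2 fold change -0.29, SE 0.065, limma adjusted p = 0.048), and with the GC trend removed the change was -0.40 (limma adjusted p = 0.029). SMARCA2, which encodes BRM, had overlapping groups with 20.8 and 19.4 (control) versus 18.7 and 21.3 TPM (knockout) (-0.0065, limma adjusted p = 0.97). With the trend removed its value was 0.15 (limma adjusted p = 0.38), so its sign depended on the scaling. The difference between the 2 motors' fold changes was not tested. SMARCA4 made up 83.3% and 84.5% of their summed TPM in control libraries, and 81.9% and 80.2% in knockout libraries.

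**Figure D3:**
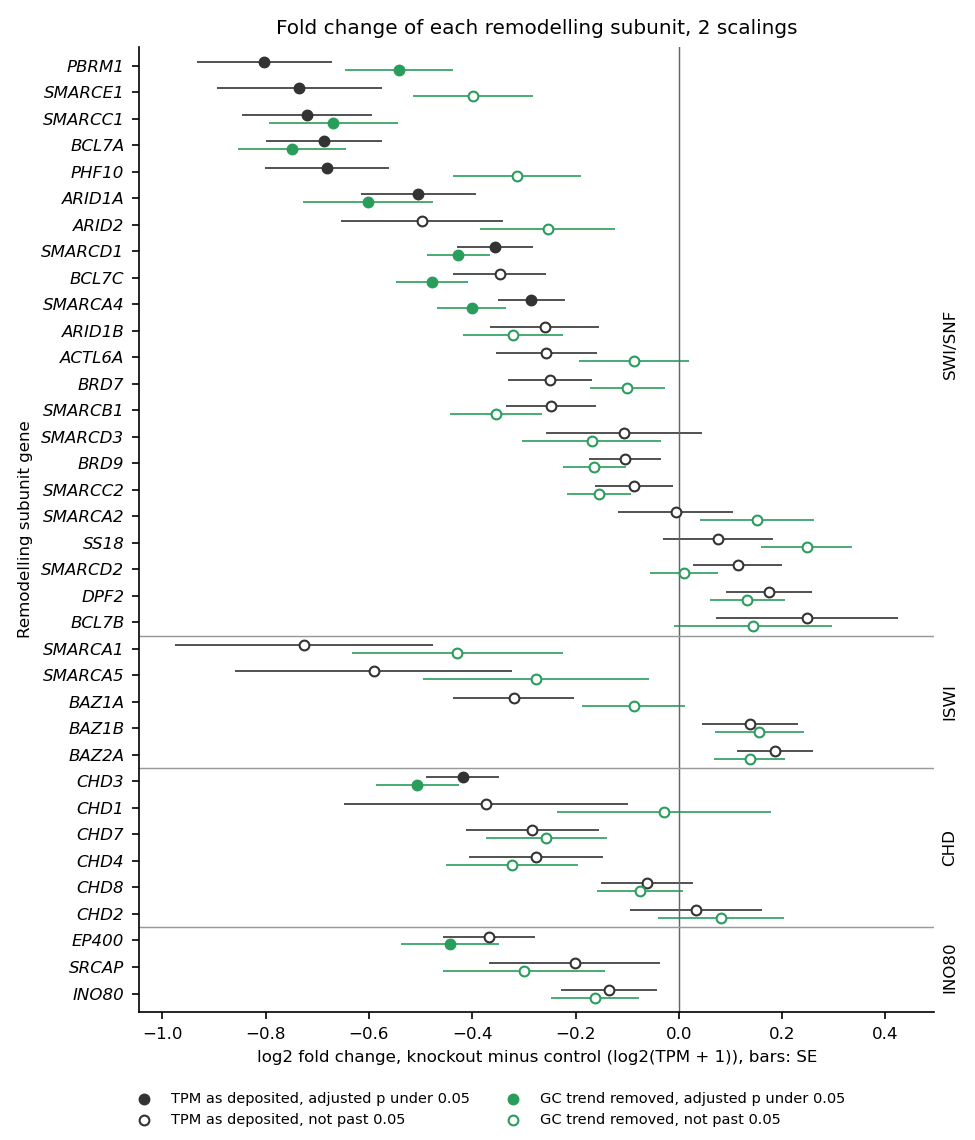
Log2 fold change (knockout minus control) of each remodelling gene with its SE, on the deposited scale (black) and with the GC trend removed (green), filled where the adjusted p is under 0.05. The 7 genes filled in both colours are PBRM1, SMARCC1, BCL7A, ARID1A, SMARCD1, SMARCA4 and CHD3.

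Among the ISWI genes 0 of 5 passed the limma test in either direction, where 8.67% of all tested genes fell and 9.06% rose. At an unadjusted p under 0.05, 2 were lower and 0 higher, where 21.4% of all tested genes were lower. SMARCA5, the SNF2H motor, measured 53.4 and 48.7 TPM in the control libraries versus 44.4 and 25.3 TPM in the knockout libraries (log2 fold change -0.59, SE 0.27, limma adjusted p = 0.18). SMARCA1, the SNF2L motor, measured 19.8 and 18.4 TPM in the control libraries versus 14.5 and 8.52 TPM in the knockout libraries (log2 fold change -0.73, SE 0.25, limma adjusted p = 0.11). In both genes the groups were separate and knockout 2 was far below knockout 1. With knockout 2 as the lone knockout and the spread taken from the controls, a setting that called 36.4% of all genes, the log2 fold changes were -0.98 for SMARCA5 and -1.08 for SMARCA1 (limma adjusted p = 0.0031 and 0.0043). With knockout 1 alone they were -0.20 and -0.37 (limma adjusted p = 0.17 and 0.071). Both have transcripts under 40% GC, and over all 4 libraries the values with the trend removed were -0.28 (limma adjusted p = 0.42) for SMARCA5 and -0.43 (limma adjusted p = 0.21) for SMARCA1. BAZ1A, the ACF partner of SNF2H, measured 20.5 and 21.5 (control) versus 17.98 and 15.4 TPM (knockout) (-0.32, limma adjusted p = 0.12, and with the trend removed -0.088, adjusted p = 0.58). BAZ2A, the NoRC partner that acts at ribosomal RNA genes, was higher in both knockouts, with 56.7 and 53.8 (control) versus 63.3 and 62.7 TPM (knockout), without passing (0.19, limma adjusted p = 0.14, and with the trend removed 0.14, adjusted p = 0.22). Over the 36 genes knockout 2 was below knockout 1 in 24, and over the 22 SWI/SNF genes in 11, beside 49.5% of all tested genes.

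**Figure D4:**
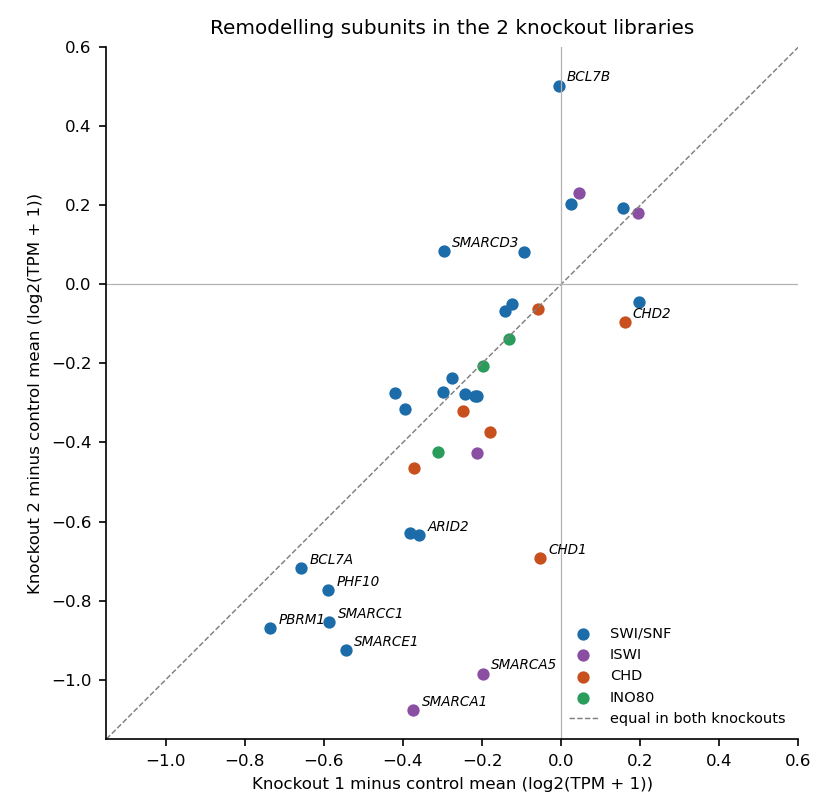
Each remodelling gene in knockout 1 (x axis) and knockout 2 (y axis), both as the log2(TPM + 1) difference from the control mean, coloured by family, with a dashed line where the knockouts are equal. Both axes share the same controls, and SMARCA5, SMARCA1 and CHD1 lie well below the line and BCL7B well above it.

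Among the CHD motors 1 of 6 fell, where 8.67% of all tested genes did. CHD3, one of the exchangeable NuRD motors (chr17:7884806-7912760), had the highest control mean of the 36 genes and measured 116.3 and 116.3 TPM in the control libraries versus 89.6 and 83.95 TPM in the knockout libraries. The groups were separate. Its average dropped from 116.3 ± 0.0394 to 86.8 ± 4.03 TPM (SD, n = 2 libraries) (log2 fold change -0.42, SE 0.071, limma adjusted p = 0.028), and with the GC trend removed the change was -0.51 (limma adjusted p = 0.027). CHD4, the other NuRD motor, measured 11.8 and 11.1 (control) versus 9.97 and 8.60 TPM (knockout) (-0.28, limma adjusted p = 0.19, and with the trend removed -0.32, adjusted p = 0.15). CHD4 shares 46.9% of its exon length with other genes on the same strand, so its level is uncertain. CHD7, whose loss causes CHARGE syndrome, measured 7.13 and 7.04 (control) versus 5.81 and 5.48 TPM (knockout) (-0.28, limma adjusted p = 0.18, and with the trend removed -0.26, adjusted p = 0.19). CHD8 measured 26 and 27.8 (control) versus 25.8 and 25.7 TPM (knockout) (-0.062, limma adjusted p = 0.65, and with the trend removed -0.075, adjusted p = 0.56). CHD1, which acts with transcribing polymerase, had overlapping groups with 7.50 and 5.49 (control) versus 6.15 and 3.59 TPM (knockout) (-0.37, limma adjusted p = 0.37, and with the trend removed -0.029, adjusted p = 0.93). CHD2 had overlapping groups too, with 15.3 and 15.7 (control) versus 17.4 and 14.4 TPM (knockout) (0.033, limma adjusted p = 0.87, and with the trend removed 0.082, adjusted p = 0.67). Knockout 2 was the lower knockout library in all 6 CHD genes, and in 49.5% of all tested genes.

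The INO80-family motors were lower in both knockouts than in both controls, a pattern found in 39% of all tested genes. On the deposited scale 0 of 3 passed the limma test, where 8.67% of all tested genes fell. At an unadjusted p under 0.05, 1 was lower and 0 higher, where 21.4% of all tested genes were lower. EP400, the motor of the TIP60 complex, measured 34.9 and 35.5 TPM in the control libraries versus 28.2 and 25.9 TPM in the knockout libraries (log2 fold change -0.37, SE 0.089, limma adjusted p = 0.053). It fell with the GC trend removed, at -0.44 (limma adjusted p = 0.045). INO80 measured 21.4 and 22.6 (control) versus 19.96 and 19.9 TPM (knockout) (-0.14, limma adjusted p = 0.34, and with the trend removed -0.16, adjusted p = 0.24). SRCAP, which deposits H2A.Z, measured 2.52 and 2.37 (control) versus 2.004 and 1.99 TPM (knockout) (-0.20, limma adjusted p = 0.42, and with the trend removed -0.30, adjusted p = 0.24). SRCAP shares 74.1% of its exon length with other genes on the same strand, so its level is uncertain.

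Ratios of TPM within each library were taken for 11 pairs of paralogs. Control and knockout libraries did not overlap in 9 pairs, with the ratio lower in 5 and higher in 4, and they overlapped in CHD1/CHD2 and EP400/SRCAP. Among single genes 39% of all tested had both knockouts below both controls and 29.2% above, and no such share was taken for other gene pairs. SMARCD2 belongs to both SMARCD1/SMARCD2 and SMARCD2/SMARCD3, so these pairs are not independent. The ratios were not tested in a model, and exact permutation of 2 against 2 libraries gives no p under 0.333. SMARCC1 relative to SMARCC2 was 0.765 and 0.9008 in control libraries, 0.5981 and 0.4688 in knockout libraries. For SMARCD1 relative to SMARCD2 the ratios were 0.7213 and 0.7113 in control libraries, 0.5336 and 0.4974 in knockout libraries. BAZ1A relative to BAZ1B was 0.2298 and 0.2251 in control libraries, 0.1888 and 0.1415 in knockout libraries. In these pairs both knockouts were below both controls. ARID1A relative to ARID1B was 2.927 and 3.051 in control libraries, 2.729 and 2.347 in knockout libraries. The ratio of SMARCA5 to SMARCA1 was higher in both knockouts, with 2.702 and 2.643 in control libraries, 3.058 and 2.969 in knockout libraries. The members of a pair can differ in GC content, for example 46.7% for SMARCC1 and 54.4% for SMARCC2, and its part in the ratios was not tested.

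**Figure D5:**
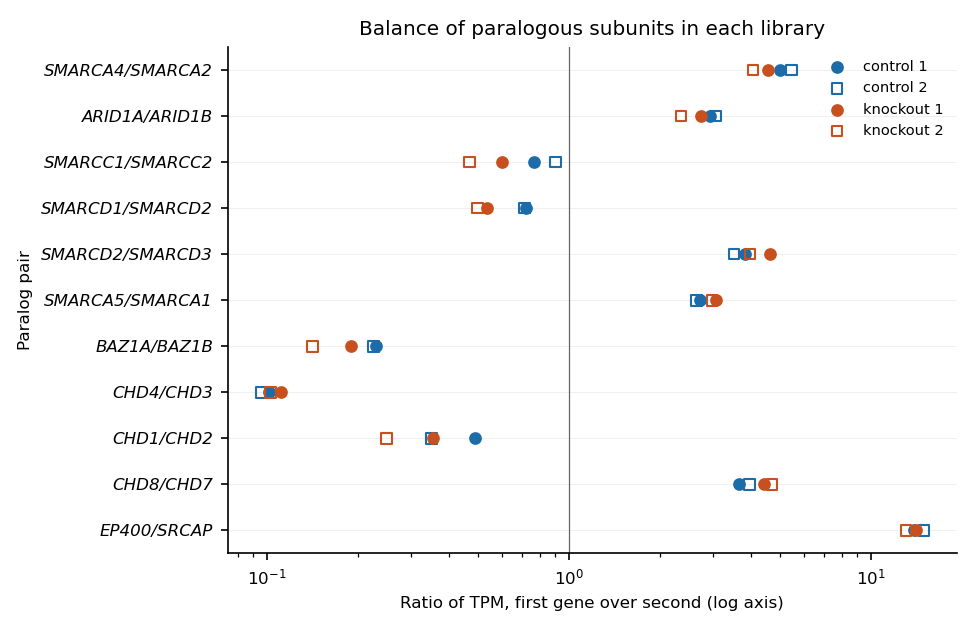
Ratio of TPM of 2 paralogs (first gene over second, log axis) in each of the 4 libraries, circles for replicate 1 and open squares for replicate 2. The knockouts lie to the left of both controls in 5 pairs, among them SMARCC1/SMARCC2 and SMARCD1/SMARCD2, and to the right in 4.

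Other genes of these complexes were examined as a list of 67, of which 62 were tested. On the deposited scale 6 fell and 1 rose, where 8.67% and 9.06% of all tested genes did, with a median log2 fold change of -0.25. With the GC trend removed 10 fell and 0 rose by limma (7.43% and 9.05% of all), 22 were lower and 2 higher at an unadjusted p under 0.05 (17.6% and 18.5% of all), and the median was -0.16. In the NuRD list 3 of 12 fell on the deposited scale (8.67% of all tested genes), and 2 of 12 fell with the trend removed (7.43% of all). MBD3, a defining NuRD subunit, measured 51.1 and 51.9 (control) versus 33.99 and 32.5 TPM (knockout) (log2 fold change -0.62, SE 0.079, limma adjusted p = 0.018), and with the trend removed the change was -0.74 (limma adjusted p = 0.018). RBBP4, a histone-binding subunit, measured 76.8 and 66.9 (control) versus 46.7 and 35.5 TPM (knockout) (-0.80, limma adjusted p = 0.036), and with the trend removed the change was -0.59 (limma adjusted p = 0.046). The deacetylase HDAC2 fell on the deposited scale (-0.50, limma adjusted p = 0.037) and did not pass with the trend removed, at -0.16 (limma adjusted p = 0.35). Among 27 partners of INO80, SRCAP and EP400, 3 fell on the deposited scale, where 8.67% of all tested genes did. They were MCRS1 (-0.43), MORF4L1 (-0.59) and MBTD1 (-0.87), with limma adjusted p = 0.031, 0.019 and 0.033. With the trend removed 7 of the 27 fell, beside 7.43% of all tested genes. These 3 were among them, at -0.53, -0.38 and -0.55 (limma adjusted p = 0.018, 0.025 and 0.047). RUVBL1, an AAA-type ATPase, measured 62.02 and 67.1 (control) versus 80.2 and 88.4 TPM (knockout) and rose (0.38, limma adjusted p = 0.049), but it did not pass with the trend removed, at 0.34 (limma adjusted p = 0.054).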

How the data were processed

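The 4 libraries of polyadenylated RNA were grouped by their titles. The authors deposited 1 table of TPM, in which each library sums to 1000000. Tools listed by the submitters' processing notes are STAR 2.7.8a, cutadapt 1.18 and featureCounts 2.0.1, with DESeq2 1.36.0 and the build hg38. The annotation, the gene lengths and any use of strand are not stated in those sources, so reads of overlapping genes may have been lost or divided.

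For the tests a gene needed 1 TPM or more in 2 or more libraries, which kept 15815. Values of log2(TPM + 1) went into limma 3.58.1 (R 4.3.3) as control against knockout, its variance prior following expression, and p-values were Benjamini-Hochberg adjusted over all kept genes at 0.05. The scripts were tested on simulated data. Positions, exon overlap and GC content (longest transcript) come from GENCODE release 29 (GRCh38), matched by name for 54390 symbols and by current or older symbol for 2183. The GC trend was a lowess fit (span 0.3) of each library's deviation from the gene mean. Reads were estimated from the commonest product of TPM and exon length, taken as 1 read. Of values under 200 reads 53.6% to 55.5% came out whole within 0.02, so read numbers are approximate.

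The genes and lists were chosen with earlier results of these data known. By the rule for named genes each of the 36 could be named, with every library's value at least for those that passed with separate groups and for paralogs, and up to 8 other remodelling genes with the smallest p among those that passed. Alternatives changed the pseudocount, filter, scaling, variance prior, replicate block, GC trend, chromosome medians, threshold and libraries. Removal of the GC trend together with chromosome medians, the block or single libraries was added after seeing the data.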

Additional observations from a re-analysis of the deposited data

How the results depend on the processing

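The 9 falls among the 36 remodelling genes became 5 with median ratio scaling (6.04% of all tested genes fell), 3 with a constant variance prior (3.61%), 0 by limma with no filter (0%, and 16 of the 36 against 11.7% of all at an unadjusted p under 0.05), 0 at a threshold of 0.01 (0.0632%) and 4 with the GC trend removed and a replicate block (4.43%). With single libraries left out the counts of falls and of rises among the 36 changed as well. With the trend removed and control 1, control 2 or knockout 1 left out, 0, 0 and 14 fell by limma (0.0196%, 0.0848% and 16.8% of all). Lower at an unadjusted limma p under 0.05 were 8, 8 and 15 of the 36 (8.05%, 8.64% and 23.6% of all). Leaving out a knockout library changed the count of rises on that scale too. Over all genes 2804 calls became 26 with no filter, 1437 with the constant prior, 90 at 0.01, 1803 with the trend removed and the block, and 47 to 5510 with libraries left out. With the trend removed they were 63, 153 and 5000 without control 1, control 2 and knockout 1. Rises made up 51.1% of calls, and 62.4% with median ratio scaling, 60.4% with chromosome medians removed, 60.3% with the constant prior, 88.9% at 0.01 and 100% with no filter. They were 97.9% and 86.3% without control 1 and control 2, and 43.1% and 45.1% without knockout 1 and knockout 2. The median of the 36, -0.27, was -0.21 with median ratio scaling, -0.28 to -0.22 with libraries left out, and -0.20 and -0.16 with the trend removed and control 2 or knockout 2 left out. The causes were not tested.

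The replicate numbers were not taken to pair libraries: deviations of same-numbered libraries correlated with r = 0.0989 across genes. With the replicate block alone 7 of the 36 fell (9.79% of all), and SMARCD1 and SMARCA4 did not pass.

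Signs changed in genes that had not passed. SMARCA2 was at 0.052 with median ratio scaling, 0.076 with quantile normalization, 0.15 with the GC trend removed (with or without the block), 0.045 with chromosome medians removed and 0.16 with both removed. BRD9 was at 0.0062 with chromosome medians removed and CHD8 at 0.030 with quantile normalization. With single libraries left out SMARCA2 ranged from -0.094 to 0.081, SMARCD3 from -0.30 to 0.084, BCL7B from -0.0063 to 0.50, SS18 from -0.044 to 0.20 and CHD2 from -0.095 to 0.16. With the trend also removed, SMARCA2 was at 0.18 and 0.11 without control 1 and control 2, and at 0.27 and 0.048 without knockout 1 and knockout 2. Without control 1, SMARCD2 was at -0.0099 and CHD1 at 0.080, and without control 2 ACTL6A was at 0.038. Without knockout 1, SMARCD3 was at 0.011 and CHD2 at -0.039. Without knockout 2, SMARCD2 was at -0.025, BCL7B at -0.057, SMARCA5 at 0.044 and CHD1 at 0.21.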
